A study of Mus musculus with 48 samples.

Results

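The interaction of corticosterone and atglistatin tells, gene by gene, where the liver answered corticosterone differently on a diet with atglistatin than on a control diet. It was taken as the log2 fold change of corticosterone over vehicle on the atglistatin diet minus the same on the control diet, so that a positive value means a higher, or less lowered, level with both agents than the single effects add up to on the log scale. All 48 libraries of the series entered the comparison, with 12688 of its 14251 genes, those that passed a filter on low counts. Each library is QuantSeq of frozen liver, a method that counts the 3′ ends of polyadenylated RNA, from a male C57BL6J mouse treated for 2 weeks. The 14 Cort_ATGLi mice drank water with corticosterone at 100 ug/ml and ate food holding atglistatin at 571 mg/kg. The 10 EtOH_ATGLi mice ate the same food and drank 1% ethanol as vehicle. The 14 Cort_CON mice drank corticosterone at 100 ug/ml, and the 10 EtOH_CON mice drank 1% ethanol, both with a control diet. Whether the corticosterone water also held ethanol is not stated in the labels. Both agents were given to the whole animal, by mouth.

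Corticosterone is the main glucocorticoid of mice. It binds the glucocorticoid receptor, a transcription factor that raises genes of glucose output and of its own feedback and lowers many genes of inflammation, and under long exposure it is known to raise insulin and the release of fatty acids from fat tissue. Adipose triglyceride lipase, ATGL, encoded by Pnpla2, takes the first fatty acid off stored triglyceride, and atglistatin is an inhibitor of the mouse enzyme. Fatty acids, sterols and insulin each have transcription factors that read them in liver, among them PPARalpha, SREBP2 and SREBP1c.

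Few genes passed the test of the interaction. Of 12688 genes tested, 181 had a called interaction (1.43%, edgeR quasi-likelihood test, Benjamini-Hochberg adjusted p of at most 0.05), 89 positive (0.701%) and 92 negative (0.725%). Corticosterone itself changed 4652 genes on the atglistatin diet (36.7%) and 5606 on the control diet (44.2%). The median interaction over all genes tested was 0.00278. The 181 genes were sorted by the effects on the single diets. In 126 of them (0.993% of the genes tested) the response was blunted, that is, corticosterone changed the gene on the control diet and did so less, or not at all, on the atglistatin diet. In 8 (0.0631%) the response was enhanced, with the same direction and a larger size on the atglistatin diet. In 38 (0.299%) it was newly appearing, called on the atglistatin diet and not on the control diet, and in 9 (0.0709%) it was reversed. Every interaction gene had a called corticosterone effect on at least 1 diet. The sorting used the same effects as the interaction, so the counts describe the calls and are not a test of their own.

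**Figure D1:**
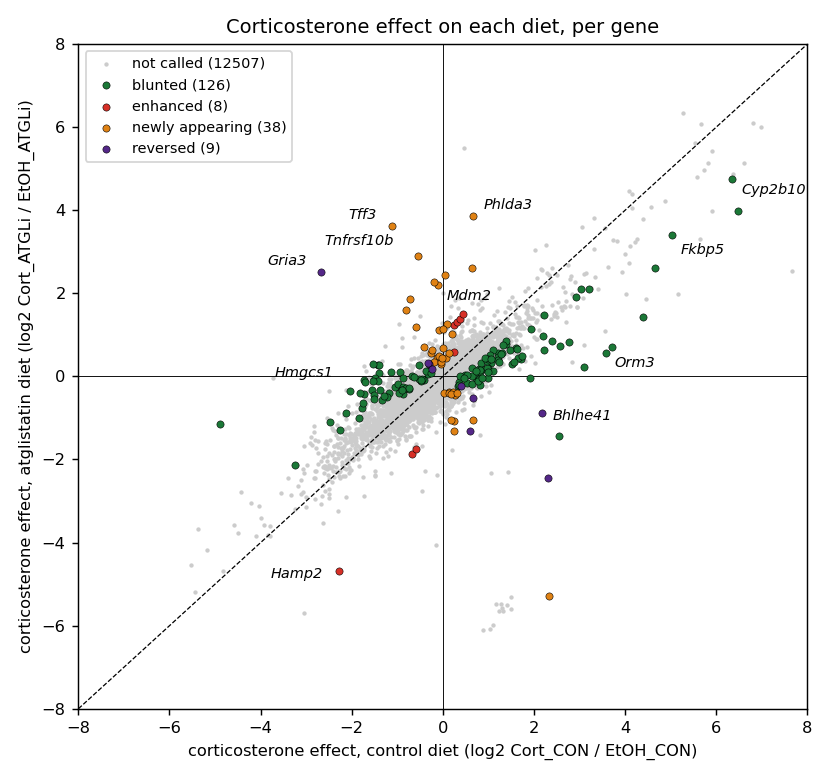
Corticosterone effect of each gene on the control diet (horizontal, log2 Cort_CON over EtOH_CON) and on the atglistatin diet (vertical, log2 Cort_ATGLi over EtOH_ATGLi), with the dashed line where both are equal. The 126 blunted genes lie between that line and the horizontal zero line, with 27 of them across it, and 3 genes lie outside the axes at 8. The 38 newly appearing genes were not called on the control diet, though some lie away from the vertical zero line.

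Among the blunted genes, 72 were raised and 54 lowered by corticosterone on the control diet. On the atglistatin diet, 56 of the 126 were still called and 70 were not. Their log2 effect on the atglistatin diet was a median 24.4% of that on the control diet (lower quartile 4.69%, upper quartile 41%), which describes the sorting and is not tested. Of the 38 newly appearing genes, 26 were raised and 12 lowered on the atglistatin diet. Read along the other factor, the larger step between the diets lay under corticosterone in 79 blunted genes and under vehicle in 47. It lay under corticosterone in all 8 enhanced genes, in 28 of the 38 newly appearing ones and in 6 of the 9 that reversed. Differences taken on the linear scale of CPM, the counts of a gene scaled to a common library total, had the same sign as the log2 interaction in 180 of the 181 genes. The exception was 1810053B23Rik, which was named for its size and is described below.

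Total counts ran from 10832711 to 21175603 in Cort_ATGLi, from 9318390 to 21086840 in EtOH_ATGLi, from 8417531 to 19548520 in Cort_CON and from 7449109 to 17246286 in EtOH_CON libraries. Alb had the highest level of all genes (mean 77170 CPM), as liver should show, and no 2 libraries of a group agreed within counting noise. The labels call 1 Cort_ATGLi, 0 EtOH_ATGLi, 9 Cort_CON and 0 EtOH_CON mice diabetic. Mean fed glucose, given without a unit, was 120.9 in Cort_ATGLi and 120.9 in EtOH_ATGLi mice, against 243.6 in Cort_CON and 132.4 in EtOH_CON mice, and mean insulin was 17.94 in Cort_ATGLi and 1.17 in EtOH_ATGLi mice, against 31.67 in Cort_CON and 2.42 in EtOH_CON mice. The pancreatic gene Cpa1 exceeded 20 CPM in 0 Cort_ATGLi, 2 EtOH_ATGLi, 1 Cort_CON and 3 EtOH_CON libraries. A clock index, the log2 level of Dbp minus that of Arntl, had medians of 0.768 in Cort_ATGLi, 2.65 in EtOH_ATGLi, -2.15 in Cort_CON and -0.948 in EtOH_CON libraries. Without the diabetic libraries 76 interactions were called, of which 62 are among the 181, and 179 of the 181 kept their sign. That refit went by the label. It kept Cort_CON 36, not labelled diabetic at a fed glucose of 242, and left out Cort_ATGLi 26, labelled diabetic at 212. Without the libraries above 20 CPM of Cpa1 64 were called, of which 59 are among the 181. The sign was kept in 180, and Try5 was filtered out there. With the clock index in the fit 140 were called, of which 119 are among the 181, all 181 keeping their sign. The part of diabetes, of pancreatic RNA or of the time of day in single genes was not tested beyond these refits, and fewer libraries alone lower such counts.

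Among the gene lists, cholesterol synthesis held the most blunted genes. Its enzymes turn acetyl-CoA into cholesterol through the mevalonate pathway, and their genes are known to be driven together by SREBP2 when cells lack sterol. Of the 25 listed genes of this pathway, corticosterone lowered 7 and raised 0 on the atglistatin diet, where it lowered 17.7% and raised 19% of all genes. On the control diet it lowered 23 and raised 1, where it lowered 21.7% and raised 22.5% of all genes. The interaction was called and positive in 17 of 25 (68%, beside 0.701% of all genes), and all 17 were blunted. The median interaction of the list was 1.13, with a median corticosterone effect of -0.282 on the atglistatin diet and -1.41 on the control diet. The list was drawn up with earlier results of these data known.

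Hmgcs1, an enzyme of the early mevalonate steps, stands in GRCm38 (ENSMUSG00000093930, chromosome 13, 119690379 to 119708260). Its level was 125 to 370.3 CPM (median 266) in Cort_ATGLi and 227 to 487 CPM (median 344) in EtOH_ATGLi livers, against 49.8 to 227 CPM (median 114) in Cort_CON and 342 to 675 CPM (median 516) in EtOH_CON livers. Every Cort_CON library lay below every EtOH_CON library, while on the atglistatin diet the groups overlapped. Over all genes, corticosterone and vehicle libraries stood fully apart in 3.14% on the atglistatin diet and in 6.11% on the control diet. The corticosterone effect was -0.36 ± 0.18 (log2 ± SE) on the atglistatin diet and -2.04 ± 0.18 on the control diet, an interaction of 1.68 ± 0.26 (adjusted p = 4.91e-05). The promoter of Hmgcs1 is shown because, of the 17 listed genes with a promoter in the RefSeq table, it is the one whose 300 bases around the start hold the 9-letter sterol regulatory element. It covers chr13:119690101-119690400 on the + strand of GRCm38.p6, from 250 bases before to 50 after the RefSeq start, with that element and the CCAAT boxes in capitals.
Hmgcs1: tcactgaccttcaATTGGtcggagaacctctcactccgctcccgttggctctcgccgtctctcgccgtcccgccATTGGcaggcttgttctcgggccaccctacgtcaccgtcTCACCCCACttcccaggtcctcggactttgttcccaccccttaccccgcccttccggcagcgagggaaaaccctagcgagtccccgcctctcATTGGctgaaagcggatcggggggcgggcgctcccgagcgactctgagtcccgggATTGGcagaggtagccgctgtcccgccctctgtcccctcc

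The element searched was TCACNCCAC, on both strands, and it occurs in 1.46% of the 9649 tested genes that have a promoter in the RefSeq table. Of the 17 called cholesterol genes, 13 have a promoter there, and 1 of these holds it. The CCAAT box (CCAAT on either strand, read as ATTGG on the other), the site of the factor NF-Y that works beside SREBP2, occurs in 12 of the 13 called genes and in 42.7% of the tested genes. The 4 genes of the list that were not called and have a promoter hold it too, so it does not set the called members apart. Msmo1, Nsdhl, Cyp51 and Lss are printed as 60 bases around the CCAAT box nearest the start, with CCAAT boxes in capitals, since they are the members next in size of interaction that are named here and have a promoter in the table. The windows are chr8:64733602-64733661 (- strand), chrX:72918501-72918560 (+), chr5:4104695-4104754 (-) and chr10:76531515-76531574 (+). A match is a stretch of letters and no proof of binding.
Msmo1: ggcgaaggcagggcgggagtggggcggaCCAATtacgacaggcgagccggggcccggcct
Nsdhl: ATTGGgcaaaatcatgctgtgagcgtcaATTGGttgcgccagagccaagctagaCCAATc
Cyp51: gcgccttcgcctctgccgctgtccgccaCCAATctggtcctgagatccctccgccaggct
Lss: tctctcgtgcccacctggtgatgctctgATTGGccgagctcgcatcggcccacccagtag

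Fdft1, squalene synthase, had the smallest interaction p of the list (ENSMUSG00000021273, chromosome 14, 63145150 to 63179578). It stood at 26.4 to 68 CPM (median 41.2) in Cort_ATGLi and 32.2 to 51.5 CPM (median 39.6) in EtOH_ATGLi livers, against 7.93 to 31 CPM (median 16.9) in Cort_CON and 32.3 to 58.2 CPM (median 43.2) in EtOH_CON livers. Only the Cort_CON group was low, below all 10 EtOH_CON libraries, and the other 3 groups overlapped widely. The effect was 0.09 ± 0.14 on the atglistatin diet (adjusted p = 0.651) and -1.39 ± 0.14 on the control diet (adjusted p = 1.4e-11), with an interaction of 1.48 ± 0.20 (adjusted p = 2.83e-06). Sqle, the squalene epoxidase that follows it, showed the largest interaction of the list at 1.69 ± 0.35 (adjusted p = 0.00452), from 0.26 ± 0.25 on the atglistatin diet and -1.42 ± 0.25 on the control diet. It lost the call without the libraries above 20 CPM of Cpa1 (1.46, adjusted p = 0.0688).

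Lss, which closes the sterol ring, had an interaction of 1.47 ± 0.22 (adjusted p = 2.06e-05), and Cyp51, the lanosterol demethylase, of 1.64 ± 0.27 (adjusted p = 0.000141). Cyp51 stood at 102 to 262 CPM (median 173) in Cort_ATGLi and 130.2 to 227 CPM (median 188) in EtOH_ATGLi livers, against 16.9 to 120.1 CPM (median 60.2) in Cort_CON and 134 to 281 CPM (median 213) in EtOH_CON livers. The demethylating partners Msmo1 (1.57 ± 0.28, adjusted p = 0.000523) and Nsdhl (1.41 ± 0.28, adjusted p = 0.00248) followed. Sc5d, a sterol desaturase, differed from these in that corticosterone still lowered it strongly on both diets. It stood at 118 to 217 CPM (median 169) in Cort_ATGLi and 343 to 525 CPM (median 401) in EtOH_ATGLi livers, against 89.1 to 168 CPM (median 123) in Cort_CON and 368 to 702 CPM (median 567) in EtOH_CON livers, without overlap on either diet. The effect was -1.30 ± 0.11 on the atglistatin diet and -2.25 ± 0.11 on the control diet, with an interaction of 0.95 ± 0.16 (adjusted p = 0.000141). Atglistatin moved Sc5d both ways, by 0.47 ± 0.10 under corticosterone (adjusted p = 0.001) and by -0.48 ± 0.12 under vehicle (adjusted p = 0.0139).

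Called members further included Mvk, Pmvk, Mvd, Idi1 and Acat2 of the early steps, Hsd17b7 and Dhcr7 of the late steps, and the sterol carrier gene Stard4. Among the 8 not called were Srebf2, Ebp, Tm7sf2, Insig1 and Fdps. Members called numbered 15 to 20 when each library was left out in turn, 19 without the diabetic libraries, 12 without the libraries above 20 CPM of Cpa1 and 16 with the clock index. The list's median interaction stayed between 0.977 and 1.30 over the settings other than leaving out single libraries.

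**Figure D2:**
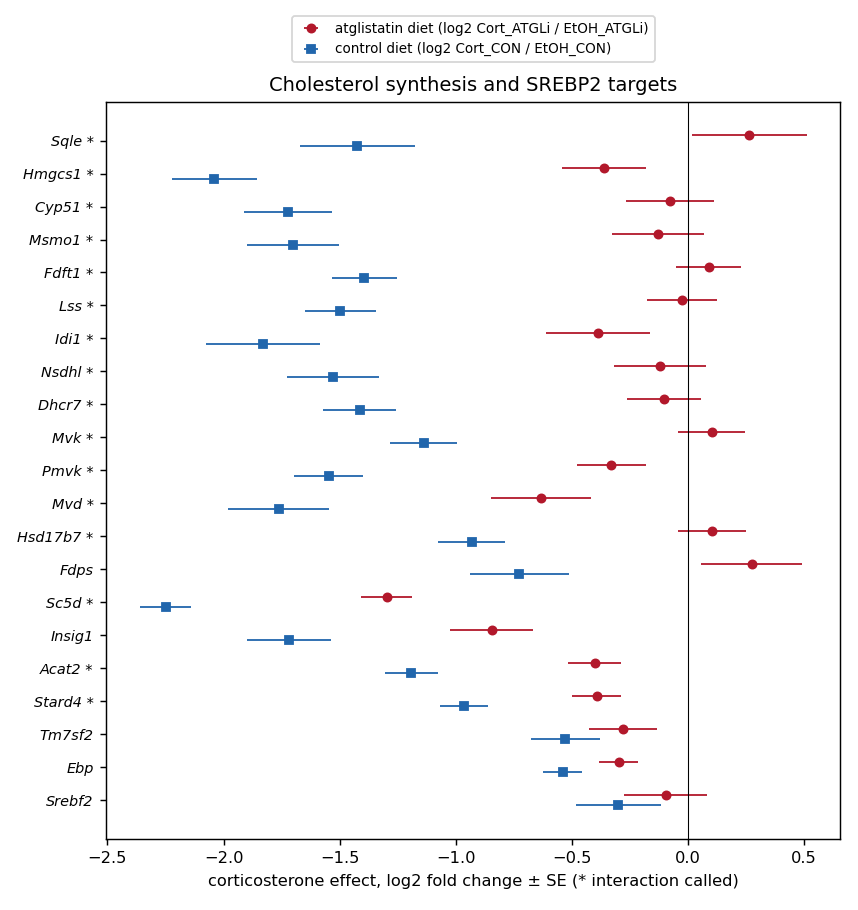
Corticosterone effect (log2 fold change, bars SE) of 21 of the listed cholesterol genes on the atglistatin diet (circles) and the control diet (squares), ordered by interaction, with a star on the 16 called among them. The circles sit near zero for most called genes, while the squares lie to its left for most of the list.

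Fatty acid genes, which SREBP1c and insulin are known to drive, did not move as a block. Of 18 listed genes of fatty acid synthesis 3 had a called interaction (16.7%, against 1.43% of all genes), all blunted. The list median was -0.00218. Acaca, acetyl-CoA carboxylase, the committed step, was raised by corticosterone on the control diet alone. Its level was 22.2 to 52.6 CPM (median 35.1) in Cort_ATGLi and 32 to 53.7 CPM (median 37.7) in EtOH_ATGLi livers, against 32.1 to 114 CPM (median 65) in Cort_CON and 31.1 to 50.4 CPM (median 38.1) in EtOH_CON livers, and the groups overlapped on both diets. The effect was -0.07 ± 0.16 on the atglistatin diet and 0.80 ± 0.17 on the control diet, an interaction of -0.87 ± 0.23 (adjusted p = 0.0414). Fads1, a desaturase of polyunsaturated fatty acids, was lowered on both diets (-0.57 ± 0.12 on the atglistatin diet and -1.34 ± 0.12 on the control diet), an interaction of 0.76 ± 0.17 (adjusted p = 0.0109). Acss2, an acetyl-CoA maker and known SREBP target, had an interaction of 0.84 ± 0.23 (adjusted p = 0.0428). Fads1 alone of the 3 kept its call without the diabetic libraries, and Acss2 alone without those above 20 CPM of Cpa1. Without the diabetic libraries Acss2 was larger (0.98, adjusted p = 0.1) and Acaca smaller (-0.71, adjusted p = 0.204). Without the Cpa1 libraries Fads1 (0.71, adjusted p = 0.105) and Acaca (-0.81, adjusted p = 0.193) stayed about as large. Named whatever their values, Srebf1 (-0.20 ± 0.31, adjusted p = 0.88), Fasn (-0.47 ± 0.27, adjusted p = 0.526) and Scd1 (-0.35 ± 0.36, adjusted p = 0.787) did not pass.

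Among genes that handle stored fat, none of the 13 listed for droplets and lipolysis and none of the 11 for triglyceride synthesis passed edgeR's test. At an unadjusted p under 0.05 they numbered 3 and 4, DESeq2 called 0 in either list, and voom with sample weights called 2 and 1. The share of all genes at that unadjusted p is not given here. Such counts, here and for the lists below, are therefore not read as above or below it. Pnpla2, the gene of the inhibited enzyme, stood at 36.9 to 102 CPM (median 44) in Cort_ATGLi and 32.1 to 79 CPM (median 45.4) in EtOH_ATGLi livers, against 26.5 to 83.2 CPM (median 46.1) in Cort_CON and 24 to 48.3 CPM (median 36.2) in EtOH_CON livers, and all 4 groups overlapped. Its interaction was -0.35 ± 0.20 (adjusted p = 0.537), which says nothing of the enzyme's activity. The droplet genes Plin5 (-0.59 ± 0.20, adjusted p = 0.15) and Cidec (1.58 ± 0.97, adjusted p = 0.56) did not pass either. The sign of Cidec rested on Cort_ATGLi 41 (70.4 CPM), without which the value was -0.92, adjusted p = 0.507. Of 30 genes that PPARalpha drives or that burn fatty acids, 2 passed (6.67%, against 1.43% of all genes). Both encode microsomal hydroxylases of fatty acids. Cyp4a10 stood at 216 to 879.9 CPM (median 345) in Cort_ATGLi and 165 to 577 CPM (median 382) in EtOH_ATGLi livers, against 193 to 1114 CPM (median 587) in Cort_CON and 25.6 to 296 CPM (median 147) in EtOH_CON livers. The lowest group was EtOH_CON, and the other 3 overlapped widely. The effect was -0.04 ± 0.28 on the atglistatin diet and 1.90 ± 0.30 on the control diet, an interaction of -1.95 ± 0.41 (adjusted p = 0.00454), and atglistatin raised it under vehicle (1.29 ± 0.31, adjusted p = 0.0105). Cyp4a14 followed with -1.83 ± 0.49 (adjusted p = 0.0432). Its effect was 0.74 ± 0.35 on the atglistatin diet and 2.58 ± 0.38 on the control diet, and its step with atglistatin under vehicle was 1.89 ± 0.39 (adjusted p = 0.00194). The 2 genes are near copies, so their reads may be shared, and neither was called without the diabetic libraries, where Cyp4a10 was about as large (-1.74, adjusted p = 0.0919) and Cyp4a14 smaller (-1.16, adjusted p = 0.553).

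The glucocorticoid receptor gene and most of its listed targets did not pass the interaction test. Of 28 listed targets 3 had a called interaction (10.7%, against 1.43% of all genes), 2 negative and 1 positive, with a list median of -0.298, beside 0.00278 over all genes. Called or not, 23 of the 28 had an interaction below 0 and 5 above, where the share of all genes below 0 is not given. Corticosterone raised 15 of the 28 on the atglistatin diet, where it raised 19% of all genes, and 19 on the control diet, where it raised 22.5%. Nr3c1, the receptor gene itself, did not pass (0.16 ± 0.10, adjusted p = 0.571). Fkbp5, a co-chaperone that lowers the receptor's hold on hormone and is one of its strongest targets, was blunted (ENSMUSG00000024222, chromosome 17, 28399094 to 28517527). Its level was 110.4 to 326 CPM (median 183) in Cort_ATGLi and 8.1 to 43.9 CPM (median 14.6) in EtOH_ATGLi livers, against 173 to 447 CPM (median 308) in Cort_CON and 5.58 to 17.2 CPM (median 8.06) in EtOH_CON livers. Corticosterone and vehicle libraries stood fully apart on both diets. The effect was 3.39 ± 0.25 on the atglistatin diet and 5.02 ± 0.27 on the control diet, an interaction of -1.63 ± 0.32 (adjusted p = 0.00175). The gap was made at both ends, since atglistatin lowered Fkbp5 under corticosterone (-0.69 ± 0.20, adjusted p = 0.0141) and raised it under vehicle (0.94 ± 0.25, adjusted p = 0.0207). The call held in all 48 fits that left out 1 library and under each of 9 other settings.

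Other targets with large responses did not pass. Cdkn1a, a cell cycle inhibitor that p53 drives too, had 121 to 478 CPM (median 324) in Cort_ATGLi and 6.55 to 25.7 CPM (median 21.5) in EtOH_ATGLi livers, against 92 to 492 CPM (median 289) in Cort_CON and 5.87 to 30.5 CPM (median 14.4) in EtOH_CON livers. Its corticosterone effects of 4.06 ± 0.29 on the atglistatin diet and 4.15 ± 0.29 on the control diet left an interaction of -0.09 ± 0.35 (adjusted p = 0.969). Tsc22d3 (-0.60 ± 0.32, adjusted p = 0.474) and Per1 (-0.69 ± 0.35, adjusted p = 0.436) likewise did not pass. Sult1e1 (-2.36 ± 2.03, adjusted p = 0.728) stayed below 1 CPM in all vehicle libraries and had a wide error. The other 2 called targets were newly appearing. Gadd45g, a stress-response gene, was raised on the atglistatin diet (1.86 ± 0.43) and not called on the control diet (-0.73 ± 0.39), an interaction of 2.59 ± 0.57 (adjusted p = 0.00962) that was lost without the diabetic libraries (2.58, adjusted p = 0.125). Mertk, a receptor for the uptake of dying cells, was lowered on the atglistatin diet alone, with an interaction of -0.41 ± 0.10 (adjusted p = 0.0213), also lost without the diabetic libraries (-0.44, adjusted p = 0.0997).

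**Figure D3:**
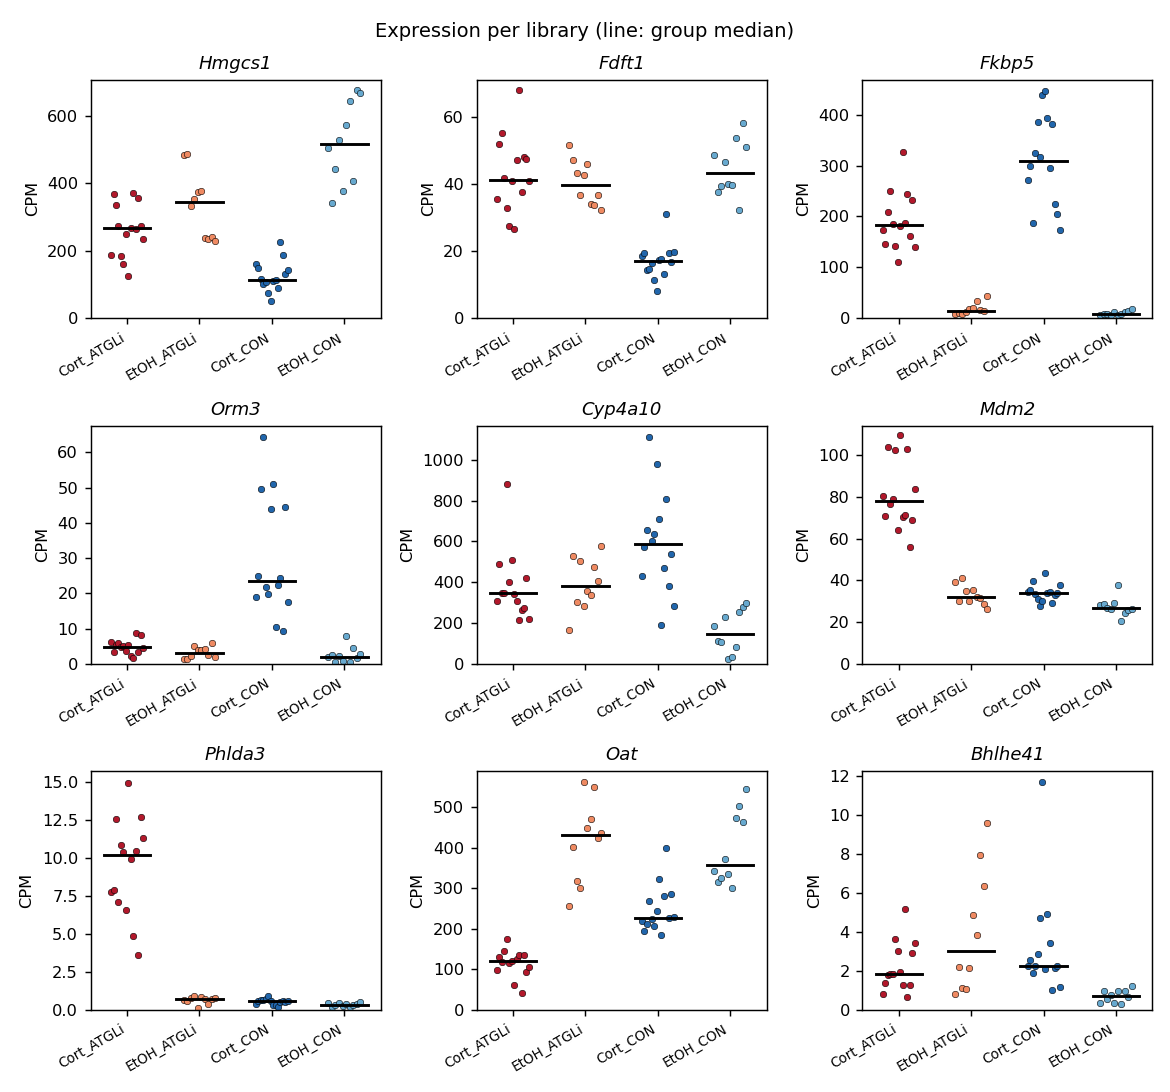
Expression in CPM of 9 genes in each of the 48 libraries by group, with a line at the group median. For the blunted Hmgcs1 and Fdft1 the Cort_CON libraries are low, for the blunted Orm3 they are high, and for the enhanced Mdm2 and newly appearing Phlda3 the Cort_ATGLi libraries stand above the other 3 groups.

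Among the gene lists, the targets of p53 held the most enhanced and the most newly appearing genes. The factor p53 is known to arrest or remove damaged or stressed cells, and its targets include its own inhibitor. Of 25 tested genes of the list, 9 had a called interaction (36%), and all 9 were positive (beside 0.701% of all genes). Among them 3 were enhanced, 5 newly appearing and 1 blunted. Corticosterone raised 17 and lowered 1 of the 25 on the atglistatin diet, where it raised 19% and lowered 17.7% of all genes. On the control diet it raised 8 and lowered 4, where it raised 22.5% and lowered 21.7% of all genes. The list's median interaction was 0.431, with a median effect of 0.706 on the atglistatin diet and 0.312 on the control diet. This list, too, was drawn up with earlier results of these data known.

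Mdm2, the ubiquitin ligase that p53 induces and that removes p53, was enhanced (ENSMUSG00000020184, chromosome 10, 117688875 to 117710758). It stood at 55.9 to 109.9 CPM (median 77.9) in Cort_ATGLi and 26.3 to 41 CPM (median 31.9) in EtOH_ATGLi livers, against 27.5 to 43.7 CPM (median 34) in Cort_CON and 20.7 to 37.9 CPM (median 26.7) in EtOH_CON livers. All 14 Cort_ATGLi libraries lay above all 34 others. The effect was 1.31 ± 0.10 on the atglistatin diet and 0.31 ± 0.10 on the control diet, an interaction of 0.99 ± 0.13 (adjusted p = 3.11e-06). Ccng1, cyclin G1, which acts in the same feedback, stood at 45.6 to 116 CPM (median 63.1) in Cort_ATGLi and 20.05 to 37.8 CPM (median 24.6) in EtOH_ATGLi livers, against 16.6 to 33.3 CPM (median 21.5) in Cort_CON and 13.9 to 25.6 CPM (median 16.9) in EtOH_CON livers. Its interaction was 1.01 ± 0.18 (adjusted p = 0.00054), and atglistatin raised it under corticosterone (1.55 ± 0.12) and, less, under vehicle (0.54 ± 0.14, adjusted p = 0.0171). Aen, an exonuclease gene that was named after its value was seen, had an interaction of 1.06 ± 0.24 (adjusted p = 0.0127) at a mean of 1.66 CPM.

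Phlda3, which holds back the kinase Akt, was below 1 CPM in all but the Cort_ATGLi group (ENSMUSG00000041801, chromosome 1, 135766119 to 135769136). Its level was 3.58 to 14.9 CPM (median 10.2) in Cort_ATGLi and 0.141 to 0.917 CPM (median 0.691) in EtOH_ATGLi livers, against 0.148 to 0.887 CPM (median 0.558) in Cort_CON and 0.156 to 0.531 CPM (median 0.335) in EtOH_CON livers. The effect was 3.86 ± 0.21 on the atglistatin diet and 0.66 ± 0.30 on the control diet (adjusted p = 0.0657), an interaction of 3.20 ± 0.39 (adjusted p = 5.54e-07). The death receptor gene Tnfrsf10b had 1.13 to 5.02 CPM (median 2.44) in Cort_ATGLi and 0.134 to 0.693 CPM (median 0.249) in EtOH_ATGLi livers, against 0 to 0.527 CPM (median 0.122) in Cort_CON and 0 to 0.474 CPM (median 0.236) in EtOH_CON livers. All 14 Cort_ATGLi libraries lay above the other 34, at levels of a few CPM, and the interaction was 3.44 ± 0.55 (adjusted p = 7.74e-05). Eda2r, another receptor of that family, and the kinase gene Plk2 were named after their values were seen, with interactions of 1.98 ± 0.52 (adjusted p = 0.0394) and 1.17 ± 0.27 (adjusted p = 0.0127). For Eda2r atglistatin also raised the level under vehicle (1.80 ± 0.38, adjusted p = 0.00295).

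Trp53inp1, which helps p53 act, stood at 57.2 to 155 CPM (median 101) in Cort_ATGLi and 36.1 to 75 CPM (median 65.8) in EtOH_ATGLi livers, against 26.8 to 101 CPM (median 46.1) in Cort_CON and 38.6 to 120.03 CPM (median 56.6) in EtOH_CON livers, so that the groups overlapped. Its interaction was 1.11 ± 0.26 (adjusted p = 0.0134). Btg2, an antiproliferative gene that is also an immediate early gene, was the blunted member. It was not called on the atglistatin diet (0.31 ± 0.32) and lowered on the control diet (-1.53 ± 0.32), an interaction of 1.83 ± 0.46 (adjusted p = 0.0255) that was lost without EtOH_CON 3 (1.68, adjusted p = 0.0566), without EtOH_CON 10 (1.54, adjusted p = 0.0631) and without the diabetic libraries (1.98, adjusted p = 0.166). Called members of the list numbered 7 to 10 with each library left out in turn, 7 without the diabetic libraries, 5 without the libraries above 20 CPM of Cpa1 and 9 with the clock index. The summed level of dividing cell markers ran from 3.71 to 63.4 CPM in Cort_ATGLi, from 4.29 to 12.3 CPM in EtOH_ATGLi, from 4.2 to 14.5 CPM in Cort_CON and from 7.25 to 18.2 CPM in EtOH_CON libraries. Its highest value was that of Cort_ATGLi 41, and without that library 10 members were called.

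**Figure D4:**
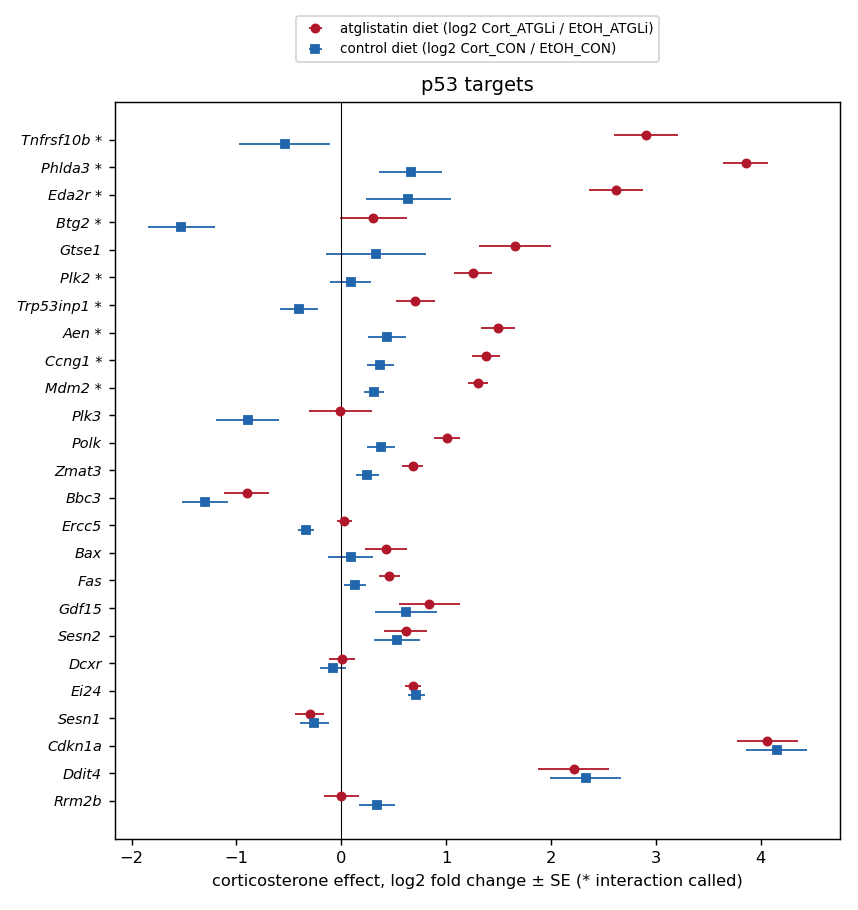
Corticosterone effect (log2 fold change, bars SE) of the 25 tested p53 targets on the atglistatin diet (circles) and the control diet (squares), ordered by interaction, with a star on the 9 called. The circles lie to the right of the squares for the called genes, and for Cdkn1a both lie far to the right and nearly coincide.

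Beside the p53 targets, 5 other genes were enhanced. Oat, ornithine aminotransferase, is a gene of the hepatocytes around the central vein. It stood at 41.7 to 176 CPM (median 119.7) in Cort_ATGLi and 257 to 563 CPM (median 432) in EtOH_ATGLi livers, against 184 to 401 CPM (median 227) in Cort_CON and 301 to 544 CPM (median 359) in EtOH_CON livers. All 14 Cort_ATGLi libraries lay below all 34 others, while the groups on the control diet overlapped. The effect was -1.87 ± 0.15 on the atglistatin diet and -0.67 ± 0.15 on the control diet, an interaction of -1.20 ± 0.22 (adjusted p = 0.000582). Rdh16, a retinol dehydrogenase gene, was lowered more on the atglistatin diet too (-1.17 ± 0.26, adjusted p = 0.00877). Hamp2, a near copy of the hepcidin gene with which it may share reads, had an interaction of -2.40 ± 0.58 (adjusted p = 0.0213), lost without EtOH_ATGLi 14 (-1.72, adjusted p = 0.0814). The noncoding 9230114K14Rik stood at 11 to 19.4 CPM (median 14.3) in Cort_ATGLi and 4.91 to 7.6 CPM (median 6.04) in EtOH_ATGLi livers, against 5.09 to 8.47 CPM (median 7) in Cort_CON and 4.01 to 6.82 CPM (median 6.14) in EtOH_CON livers, with an interaction of 0.99 ± 0.13 (adjusted p = 2.83e-06). Atp6v1d, a proton pump subunit, had the smallest enhancement of these (0.35 ± 0.07, adjusted p = 0.00403).

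Of 20 listed pericentral genes 4 had a called interaction (20%), all negative, against 0.725% of all genes, namely Oat, Glul, Rhbg and Slc1a2. Glul, Rhbg and Slc1a2 belong to the handling of glutamine and ammonia near the central vein. Glul, glutamine synthetase, stood at 139.6 to 848 CPM (median 668) in Cort_ATGLi and 424 to 904 CPM (median 777) in EtOH_ATGLi livers, against 817 to 1584 CPM (median 1292) in Cort_CON and 425 to 1011 CPM (median 715) in EtOH_CON livers. Cort_CON was the high group and the other 3 overlapped. The effect was -0.21 ± 0.16 on the atglistatin diet and 0.81 ± 0.17 on the control diet, an interaction of -1.03 ± 0.23 (adjusted p = 0.0109). The glutamate transporter gene Slc1a2 had the same pattern (-0.90 ± 0.25, adjusted p = 0.0483). The ammonium transporter gene Rhbg was lowered on the atglistatin diet (-0.52 ± 0.21) and raised on the control diet (0.66 ± 0.21), an interaction of -1.18 ± 0.30 (adjusted p = 0.0263). The median of the list was -0.137, and without the diabetic libraries Oat alone of the 4 kept its call. The interaction was then about as large for Glul (-1.09, adjusted p = 0.0588) and Slc1a2 (-0.92, adjusted p = 0.197) and smaller for Rhbg (-0.68, adjusted p = 0.464). None of the 15 periportal genes passed edgeR's test, with 1 at an unadjusted p under 0.05 and 0 called by DESeq2 or voom.

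Among the blunted genes that corticosterone raised, Orm3 had the largest interaction of those at or above 5 CPM. It encodes an acid glycoprotein of the acute phase and has near copies in Orm1 and Orm2 that may share its reads. It was the 1 of 25 acute phase genes called (4%, against 1.43% of all genes). Its level was 1.65 to 8.69 CPM (median 4.87) in Cort_ATGLi and 1.41 to 5.9 CPM (median 3.22) in EtOH_ATGLi livers, against 9.29 to 64.4 CPM (median 23.5) in Cort_CON and 0.395 to 7.95 CPM (median 2.07) in EtOH_CON livers. All Cort_CON libraries lay above all others. The effect was 0.56 ± 0.34 on the atglistatin diet and 3.57 ± 0.36 on the control diet, an interaction of -3.01 ± 0.48 (adjusted p = 8.15e-05). Rgs16, a regulator of G protein signals, had an interaction of -2.96 ± 0.79 (adjusted p = 0.0414), and the noncoding 1810053B23Rik of -2.51 ± 0.69 (adjusted p = 0.0483). For 1810053B23Rik the vehicle levels were 0 to 8.88 CPM (median 0.914) in EtOH_ATGLi and 0 to 0.897 CPM (median 0.188) in EtOH_CON livers, so the fold rests on the low vehicle groups, and without EtOH_ATGLi 14 it was -1.64, adjusted p = 0.2. Ccn2, a matrix-linked growth factor gene, had -1.60 ± 0.43 (adjusted p = 0.0428).

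Genes of sugar handling were mostly not called. Slc37a4, which carries glucose 6-phosphate to the last step of glucose output, was the 1 of 15 gluconeogenic genes that passed (6.67%, against 1.43% of all genes). It stood at 169 to 277 CPM (median 204) in Cort_ATGLi and 71.9 to 117 CPM (median 104) in EtOH_ATGLi livers, against 196 to 431 CPM (median 294) in Cort_CON and 48.2 to 126 CPM (median 74.9) in EtOH_CON livers, without overlap on either diet. The effect was 1.14 ± 0.13 on the atglistatin diet and 1.94 ± 0.14 on the control diet, an interaction of -0.80 ± 0.18 (adjusted p = 0.0116). Txnip, a gene that glucose is known to induce, was not called on the atglistatin diet (0.30 ± 0.23) and raised on the control diet (1.51 ± 0.24), an interaction of -1.21 ± 0.32 (adjusted p = 0.0414). Without the diabetic libraries neither Txnip, whose value was about as large (-1.19, adjusted p = 0.08), nor Slc37a4 (-0.66, adjusted p = 0.188) was called. Pck1 (-0.19 ± 0.36, adjusted p = 0.903) and G6pc (-0.40 ± 0.33, adjusted p = 0.707) did not pass. None of the 21 glycolysis and sugar uptake genes passed edgeR's test, with 6 at an unadjusted p under 0.05 and 0 called by DESeq2 or voom. Fgf21, a fasting hormone of liver, did not pass (-1.34 ± 0.94, adjusted p = 0.638). Its value was -2.25, adjusted p = 0.0839 without Cort_ATGLi 41, the highest library of that group at 25.5 CPM. Cyp7a1 of bile acid synthesis did not pass with all libraries (0.34 ± 0.48, adjusted p = 0.861). Without the diabetic libraries Cyp7a1 was called (1.61, adjusted p = 0.0482). Its value was 0.84 without Cort_CON 45, the highest library of that group at 290 CPM.

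Of 31 tested genes that the drug sensors CAR and PXR drive, 4 passed (12.9%), all negative, against 0.725% of all genes, with a list median of -0.449. Cyp2b10, the classic CAR target, stood at 139.6 to 848 CPM (median 332) in Cort_ATGLi and 3.6 to 26.1 CPM (median 12.8) in EtOH_ATGLi livers, against 184 to 1645 CPM (median 498) in Cort_CON and 2.47 to 13.8 CPM (median 6.37) in EtOH_CON livers. It rose strongly on both diets, by 4.75 ± 0.37 on the atglistatin diet and 6.35 ± 0.40 on the control diet, and the interaction was -1.60 ± 0.44 (adjusted p = 0.0483). Gstt3, a glutathione transferase (-0.84 ± 0.21, adjusted p = 0.03), and Sult1d1, a sulfotransferase (-0.93 ± 0.25, adjusted p = 0.0414), were blunted too. Cyp2b9, a near copy of Cyp2b10 whose reads may be shared, reversed at under 1 CPM on average (-4.74 ± 1.25, adjusted p = 0.0391). None of the 4 kept a call without the diabetic libraries, without those above 20 CPM of Cpa1 or with the clock index. The interaction of Sult1d1 was -0.97, -0.90 and -0.83 under these 3 settings, about as large as with all libraries, and that of Gstt3 was -0.64, -0.62 and -0.79. Cyp2b10 had -1.24, -1.32 and -1.57, and Cyp2b9 -2.28, -2.90 and -4.50.

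Of the 19 listed clock genes 4 passed (21.1%), all negative, against 0.725% of all genes called negative, with Ciart, Bhlhe40 and Hlf blunted and Bhlhe41 reversed. They encode repressors and output factors of the daily clock. Ciart stood at 1.36 to 9.22 CPM (median 4.36) in Cort_ATGLi and 0.494 to 16.4 CPM (median 2.5) in EtOH_ATGLi livers, against 1.31 to 14.1 CPM (median 3.93) in Cort_CON and 0.149 to 1.47 CPM (median 0.4) in EtOH_CON livers. The EtOH_CON median was the lowest, the groups overlapped, and the interaction was -2.85 ± 0.67 (adjusted p = 0.0173), with -2.27 (adjusted p = 0.0501) without EtOH_ATGLi 14. Bhlhe41 stood at 0.673 to 5.14 CPM (median 1.83) in Cort_ATGLi and 0.805 to 9.56 CPM (median 3) in EtOH_ATGLi livers, against 0.992 to 11.7 CPM (median 2.24) in Cort_CON and 0.307 to 1.19 CPM (median 0.686) in EtOH_CON livers. It was lowered on the atglistatin diet (-0.88 ± 0.34) and raised on the control diet (2.17 ± 0.43), an interaction of -3.05 ± 0.55 (adjusted p = 0.00054). Bhlhe40 had -0.88 ± 0.22 (adjusted p = 0.0286) and Hlf -0.60 ± 0.16 (adjusted p = 0.0359). Dbp (-1.07 ± 0.56, adjusted p = 0.465) and Arntl (0.49 ± 0.32, adjusted p = 0.604), which form the clock index, did not pass. With that index in the fit Bhlhe41 alone kept its call (-2.69, adjusted p = 0.00213), while the values were lower in size for Bhlhe40 (-0.72, adjusted p = 0.0689), Hlf (-0.51, adjusted p = 0.0796) and Ciart (-1.84, adjusted p = 0.137). A stretch of the Ciart promoter is shown, chr3:95882240-95882299 on the - strand of GRCm38.p6, because the whole promoter holds 3 E-boxes (CACGTG, the site of the clock factors, found in 11.9% of the tested genes with a promoter), of which the stretch printed holds the 2 nearest the start, in capitals.
Ciart: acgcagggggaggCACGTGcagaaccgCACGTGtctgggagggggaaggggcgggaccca

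**Figure D5:**
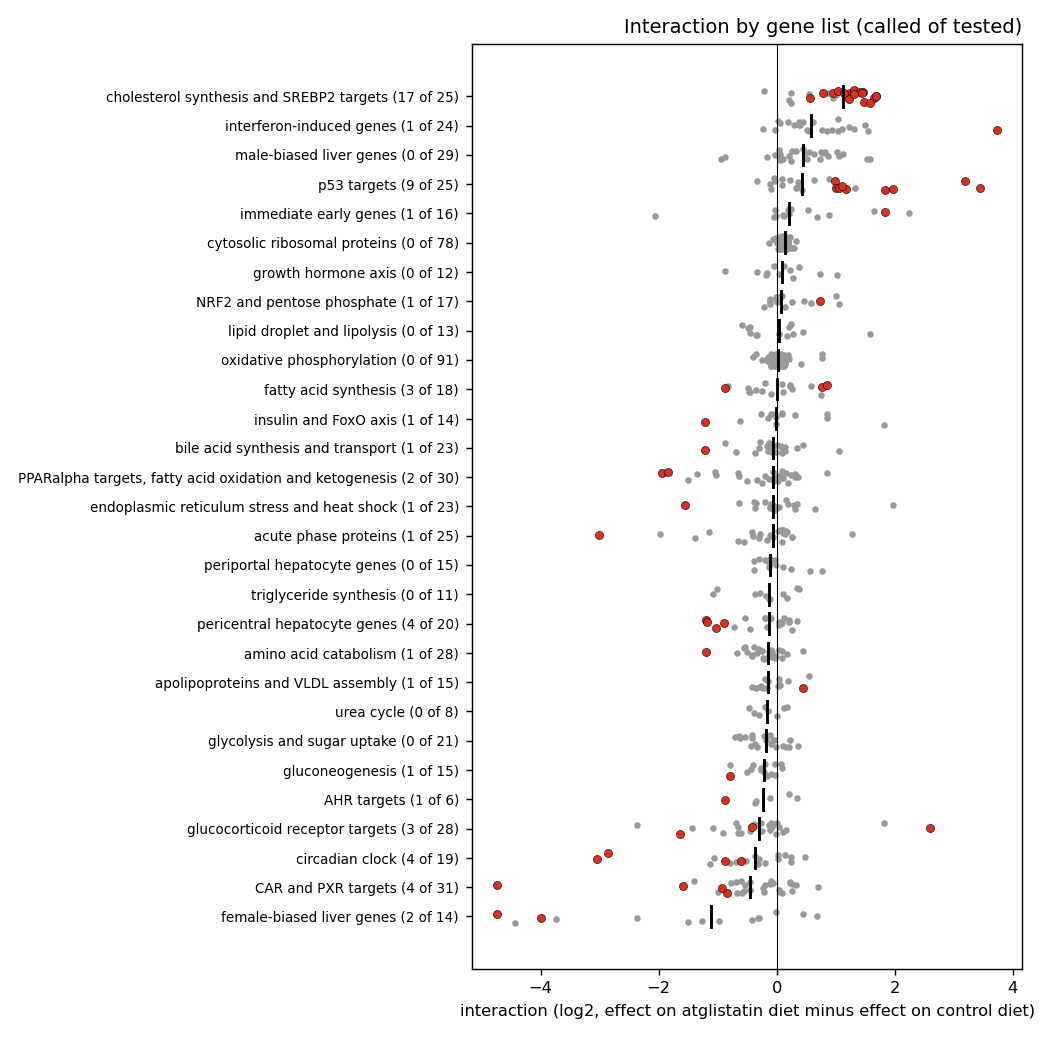
Interaction (log2) of each tested member of the 29 pathway lists, with the list median as a bar, called genes in red and the number called of those tested in the label. The cholesterol list lies to the right of zero with 17 of 25 called, and the p53 list holds 9 called genes to the right.

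Of the other reversed genes, 4 at or above 5 CPM had interactions under 1 in size. Notch1, a receptor of cell fate, was raised on the atglistatin diet (0.31 ± 0.07) and lowered on the control diet (-0.31 ± 0.08), an interaction of 0.61 ± 0.11 (adjusted p = 0.000346). Siva1, a known p53 target that was not on the list, had 0.66 ± 0.15 (adjusted p = 0.00973), Kyat1, an aminotransferase gene, 0.42 ± 0.09 (adjusted p = 0.00403), and Kctd2 -0.64 ± 0.13 (adjusted p = 0.00208). The smallest interaction p of all genes belonged to Gria3, a glutamate receptor subunit of neurons, which lies under 5 CPM and was named after its value was seen. Its level was 1.15 to 6.84 CPM (median 2.79) in Cort_ATGLi and 0.209 to 1.48 CPM (median 0.442) in EtOH_ATGLi livers, against 0 to 0.36 CPM (median 0.119) in Cort_CON and 0.363 to 2.05 CPM (median 0.565) in EtOH_CON livers. It rose on the atglistatin diet (2.51 ± 0.32) and fell on the control diet (-2.67 ± 0.43), an interaction of 5.17 ± 0.53 (adjusted p = 5.68e-09) that held in all 48 fits without 1 library. Rcan2, a regulator of calcineurin that also lies under 5 CPM and was named after its value was seen, was lowered on the atglistatin diet (-1.31 ± 0.21) and raised on the control diet (0.60 ± 0.19), an interaction of -1.91 ± 0.28 (adjusted p = 2.06e-05).

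Among the newly appearing genes, Mbl2, the mannose-binding lectin C of serum, was the most abundant one named. It stood at 491 to 1144 CPM (median 875) in Cort_ATGLi and 499 to 782 CPM (median 559) in EtOH_ATGLi livers, against 186 to 464 CPM (median 339) in Cort_CON and 258 to 480.4 CPM (median 414) in EtOH_CON livers. Both atglistatin groups lay above both control diet groups, without overlap. The effect was 0.57 ± 0.13 on the atglistatin diet and -0.26 ± 0.12 on the control diet (adjusted p = 0.0817), an interaction of 0.83 ± 0.18 (adjusted p = 0.00512). Tff3, a peptide of mucous surfaces, had the largest fold among the raised ones (4.74 ± 1.23, adjusted p = 0.0339), yet its medians were 7.37 CPM in Cort_ATGLi, 2.09 in EtOH_ATGLi, 12.5 in Cort_CON and 1.69 in EtOH_CON livers. The fold rested on single libraries, since it was 2.93, adjusted p = 0.138 without Cort_ATGLi 41 and 2.79, adjusted p = 0.264 without EtOH_CON 9. Nat8f5, of a cluster of near copies, had 1.19 ± 0.30 (adjusted p = 0.0254), and Gm26917 0.88 ± 0.22 (adjusted p = 0.0248). Among the lowered ones Trib3, a stress-induced pseudokinase, had -1.56 ± 0.39 (adjusted p = 0.0263) and the bile acid and drug carrier Slco1a4 -1.22 ± 0.33 (adjusted p = 0.0456). Mras (-0.72 ± 0.17), Zfp385b (-0.71 ± 0.20) and Rps6ka1 (-0.61 ± 0.17) had adjusted p of 0.0175, 0.0483 and 0.0483. The trypsin gene Try5 had -7.61 ± 2.10 (adjusted p = 0.0496) and reached 7.82 CPM in Cort_ATGLi, 465 CPM in EtOH_ATGLi, 579.8 CPM in Cort_CON and 58.6 CPM in EtOH_CON, with medians below 1 CPM in every group. All 11 tested pancreatic genes had a negative interaction, among them Cpa1 (-6.99 ± 2.06, adjusted p = 0.071), and the value of Try5 was -4.14, adjusted p = 0.375 without EtOH_ATGLi 6. Cpa1, Try5 and the summed pancreatic genes were highest in EtOH_ATGLi 6 and Cort_CON 30, so the 11 genes are not separate results. The sign was not stable. Cpa1 was 0.93 without Cort_CON 30, and Cpa1 and Try5 were 3.22 and 1.88 without the diabetic libraries.

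Single members of other lists passed as well, where 1.43% of all genes had a called interaction. Gclc of glutathione synthesis had an interaction of 0.73 ± 0.16 (adjusted p = 0.00984, 1 of 17 listed NRF2 genes). Apom, an apolipoprotein, had 0.44 ± 0.11 (adjusted p = 0.0175, 1 of 15), and Tiparp, an AHR target, -0.87 ± 0.23 (adjusted p = 0.0419, 1 of 6). Among interferon-induced genes the chemokine gene Cxcl10 was the 1 of 24 called (3.74 ± 0.97, adjusted p = 0.0363), and without Cort_ATGLi 41 it was 1.59, adjusted p = 0.406, without EtOH_CON 10 2.69, adjusted p = 0.118. Of the 24, 22 had an interaction above 0, 12 an unadjusted p under 0.05, and the list median was 0.581, beside 0.00278 over all genes. The shares of all genes above or below 0 are not given. Such counts of signs, here and for the sex-biased lists, are therefore not read as a shift of the list. Cux2, a female-biased repressor, had -3.99 ± 1.01 (adjusted p = 0.0285, 2 of 14 female-biased genes with Cyp2b9), and without EtOH_ATGLi 14 it was -2.36, adjusted p = 0.241. Of the 14 female-biased genes, 12 had an interaction below 0. The list median was -1.12, and -0.526 without EtOH_ATGLi 14. Usp2, a deubiquitinase under clock control, had -1.94 ± 0.52 (adjusted p = 0.0428), with a step by atglistatin under vehicle of 2.23 ± 0.41 (adjusted p = 0.000592). Its interaction was smaller with the clock index (-1.06, adjusted p = 0.18) and without EtOH_ATGLi 14 (-1.36, adjusted p = 0.144).

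Apart from the pancreatic gene Try5, markers of other cells gave no called interaction in edgeR's test, although corticosterone lowered many of them on both diets. None of 17 macrophage genes passed (list median 0.194), none of 6 genes of lymphocytes (0.0489), none of 6 of antigen presentation by MHC class II (0.224), none of 17 of sinusoidal endothelium (-0.141) and none of 19 of stellate cells (0.0769). Corticosterone lowered 15 macrophage genes on the atglistatin diet and 15 on the control diet, where it lowered 17.7% and 21.7% of all genes. In the same order it lowered 5 and 5 lymphocyte genes and 6 and 6 MHC class II genes. It lowered 13 and 7 endothelial genes and 8 and 9 stellate genes. At an unadjusted p under 0.05 there were 2 genes of the endothelial and 2 of the stellate list and 0 of the other 3, and DESeq2 and voom called 0 in all 5. In bulk liver, fewer cells of a type and less RNA per cell cannot be told apart. Among larger lists, none of 91 oxidative phosphorylation genes (median 0.0218) and none of 78 ribosomal protein genes (median 0.135) passed, with 2 and 4 at an unadjusted p under 0.05, 0 called by DESeq2, and 1 and 2 called by voom. None of 29 male-biased genes passed either (median 0.447, with 25 above 0, 6 at an unadjusted p under 0.05, and 1 called by DESeq2 and by voom). None of 12 growth hormone axis and 8 urea cycle genes passed, with 0 and 1 at an unadjusted p under 0.05 and 0 called by DESeq2 or voom. The summed macrophage markers ran from 115.9 to 605 CPM in Cort_ATGLi, from 315 to 509 CPM in EtOH_ATGLi, from 147 to 307 CPM in Cort_CON and from 378 to 647 CPM in EtOH_CON libraries, where 605 CPM was library 41.

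Acnat2, an acyltransferase gene with a near copy in Acnat1, was chosen after its values were seen, because its promoter is 1 of 3 among the 32851 in the table with the full glucocorticoid response element (its full palindrome, searched on both strands). The window is chr4:49408217-49408276 on the - strand of GRCm38.p6, with the element in capitals.
Acnat2: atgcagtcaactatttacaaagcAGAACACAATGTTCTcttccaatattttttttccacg
It stood at 169.6 to 296 CPM (median 203) in Cort_ATGLi and 16.3 to 75.7 CPM (median 50.3) in EtOH_ATGLi livers, against 97.2 to 312 CPM (median 207) in Cort_CON and 5.73 to 40.2 CPM (median 21.9) in EtOH_CON livers. The effect was 2.09 ± 0.21 on the atglistatin diet and 3.20 ± 0.23 on the control diet, an interaction of -1.11 ± 0.29 (adjusted p = 0.0334). The corticosterone groups lay on one another, and atglistatin raised the gene under vehicle (1.24 ± 0.22, adjusted p = 0.000408).

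Of the 68 genes with a called interaction named here and followed through the settings, 39 were called in all 48 fits without 1 library and 20 also under each of 9 other settings (RLE factors, no filter, DESeq2, voom with weights, robust estimation, the replicate block, the clock index, and without the diabetic libraries or those with Cpa1). Those 20 were Hmgcs1, Fdft1, Lss, Cyp51, Msmo1, Nsdhl and Sc5d of cholesterol synthesis, Mdm2, Ccng1, Phlda3 and Tnfrsf10b of the p53 list, Fkbp5, Orm3, Oat, Bhlhe41, Notch1, Kctd2, Mbl2, 9230114K14Rik and Gria3. The other 48 lost the call in at least 1 of these fits. Single libraries ended the call of 29 genes. One library did so for Gm26917 (0.81, adjusted p = 0.0504, without EtOH_CON 9), Gstt3 (-0.81, adjusted p = 0.0519, without EtOH_ATGLi 11) and Trib3 (-1.38, adjusted p = 0.0558, without EtOH_ATGLi 14), beside Ciart and Hamp2. Bhlhe40 lost it without EtOH_ATGLi 11 (-0.80, adjusted p = 0.06) or 14 (-0.79, adjusted p = 0.0547). The weakest were Cyp2b10, Slc1a2, 1810053B23Rik, Rps6ka1 and Zfp385b, called in 15, 17, 18, 18 and 20 of the 48 fits, and Try5, called in 18 of the 44 fits in which it passed the filter. Acss2 and Slco1a4 were called in 25 each, Ccn2 in 28, Cyp4a14 and Usp2 in 29 each, Rgs16, Tiparp and Txnip in 30 each, Sult1d1 in 32, Acaca in 33, Cyp2b9 in 35, Eda2r in 40 and Hlf in 42. Cxcl10, Tff3, Cux2 and Btg2 were called in 43, 44, 45 and 46.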

How the data were processed

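RNA of 48 livers was measured as QuantSeq 3′ libraries. The deposited table of raw counts per gene was the base of every test, and the authors' normalized signal, counts divided by 1 size factor per library, was read for gene symbols only. The submitters' processing notes name GRCm38, R 3.6 and DESeq2 1.24.0, and the aligner, counter and strand option are not given there, so overlapping and antisense genes and near copies cannot be told apart. Counts were filtered with filterByExpr (minimum count 10, minimum total 15), scaled with TMM factors and fitted with edgeR 4.0.16 (quasi-likelihood, 1 mean per group, all 48 libraries) in R 4.3.3. The code was tested on simulated data. Levels are CPM on TMM-scaled library sizes. P-values were adjusted by the Benjamini-Hochberg method over all 12688 genes and called at 0.05. Fold changes are log2, and each SE is the fold change divided by the square root of its F statistic.

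Among interaction genes of at least 5 CPM on average, those named were, by size, the first 8 blunted in each direction, 5 enhanced, 6 newly appearing and 4 reversed, then up to 4 called members of each list by p, and 25 genes whatever their values, of which 3 are not reported here. Members and lists were chosen with earlier results of these data known. Promoter and CCAAT, sterol, E-box and glucocorticoid element letters came from RefSeq promoters (GRCm38.p6, 250 bases before to 50 after the start). The alternatives were RLE factors, no filter, DESeq2 1.42.0, limma 3.58.1 voom with sample weights, robust estimation, a random replicate block in limma voom, a threshold of 0.01, sorting by unadjusted p, the clock index as covariate, and leaving out each library, the diabetic ones or those above 20 CPM of Cpa1. The numbers in the titles are shared by some groups (6 numbers occur in 2 groups or more) and libraries of 1 number correlated by 0.0161, so the libraries were not paired. The labels give 1 mouse per library, and the counting precision follows from totals of 7449109 to 21175603 per library.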

Additional observations from a re-analysis of the deposited data

Results flagged for a closer look

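The corticosterone effect differed between the diets in 181 genes, by the test of the interaction itself, and these are the genes described above. The genes named were also searched for outlying libraries within the vehicle groups of 10, on the log2 of CPM plus 0.5. The gap of a library to its nearest neighbour, as a share of the group's range, was held against the limit of Dixon's test. Past that limit were 13 of 172 checks (7.56%), where chance gives about 1 in 20. The levels below are CPM, not the log2 values searched. Groups of 14 were not searched.

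Among EtOH_ATGLi libraries, number 14 was high for Btg2 (9.56 CPM, the others 3.21 to 5.74), Cux2 (12.1 CPM, the others 0.251 to 0.99) and Tff3 (12.6 CPM, the others 0.786 to 2.56), and number 6 for Acaca (53.7 CPM, the others 32 to 42). Among EtOH_CON libraries, number 10 was high for Cxcl10 (39.1 CPM, the others 1.17 to 8) and low for Cyp7a1 (15.1 CPM, the others 68.4 to 165) and Srebf1 (20 CPM, the others 44.3 to 84.1). Number 12 was high for 1810053B23Rik (0.897 CPM, the others 0 to 0.265), Gclc (419 CPM, the others 271 to 320) and Tsc22d3 (217 CPM, the others 41.8 to 87.8). Number 4 was high for Cyp2b9 (1.24 CPM, the others 0 to 0.32) and Tiparp (15.7 CPM, the others 6.44 to 9.87), and number 16 was low for Kctd2 (12.9 CPM, the others 16.1 to 20.4).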

How the results depend on the processing

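The count of 181 interaction genes became 265 with DESeq2, 359 with voom and sample weights, 163 with robust estimation, 185 with RLE factors, 189 with no filter, 140 with the clock index, 76 without the diabetic libraries, 64 without those above 20 CPM of Cpa1, and 57 at a threshold of 0.01. With the random replicate block, fitted with limma voom in place of edgeR, it was 150, of which 136 are among the 181. Blunted genes numbered 193 with DESeq2, 271 with voom, 47 without the diabetic libraries, 38 without those with Cpa1 and 39 at 0.01. Enhanced genes numbered 14, 2, 2 and 4 with voom, without the diabetic libraries, without those with Cpa1 and at 0.01. Newly appearing ones numbered 21, 17 and 11 under the last 3 of these. Reversed ones numbered 23 with voom, 5 with the clock index, 3 at 0.01 and 19 when sorted by unadjusted p. The calls of the corticosterone effect on the control diet numbered 3614 without the diabetic libraries, with 5 Cort_CON libraries left. Fewer samples or a lower threshold are part of those settings, and the cause was not tested beyond that.

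With each library left out in turn, interaction genes numbered 122 (without EtOH_ATGLi 11) to 237 (without Cort_ATGLi 41), blunted 81 (without EtOH_ATGLi 11) to 165, enhanced 7 to 12, newly appearing 24 (without Cort_CON 37; 25 without Cort_ATGLi 17) to 52, reversed 6 to 13, and corticosterone calls 4247 to 4710 on the atglistatin and 5277 to 5732 on the control diet. Among the named genes followed through the settings, every change of sign lay in a gene without a call or in Try5. Cidec was -0.91 with DESeq2, -1.12 with voom and -0.46 with the replicate block, and -0.92 to 1.88 with single libraries left out, the lowest without Cort_ATGLi 41. Cpa1 was 5.31, 0.042 and 1.48 under the same 3 settings, 3.22 without the diabetic libraries, 4.01 without those with Cpa1 and -7.87 to 0.93 with single libraries left out, the highest without Cort_CON 30. Try5 was 2.17 with DESeq2, 0.71 with the replicate block and 1.88 without the diabetic libraries, and was filtered out without those with Cpa1. Pck1 was 0.0074 with voom, 0.26 without the diabetic libraries and 0.082 with the clock index. Scd1 was 0.020 without the libraries with Cpa1.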

Other observations

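The 6 blunted genes named here are on none of the lists and were chosen after their values were seen. Acsl3 and Acsl4, which join fatty acids to coenzyme A, had interactions of 1.06 ± 0.20 (adjusted p = 0.00173) and 0.83 ± 0.19 (adjusted p = 0.0113). Acsl3 stood at 16.5 to 40.8 CPM (median 30.5) in Cort_ATGLi and 24.9 to 58.5 CPM (median 40.4) in EtOH_ATGLi livers, against 8.29 to 25.2 CPM (median 18.1) in Cort_CON and 32.7 to 68.1 CPM (median 49.9) in EtOH_CON livers. Rdh11, a retinol reductase gene, had 1.05 ± 0.21 (adjusted p = 0.00198), with corticosterone effects of -0.34 ± 0.14 on the atglistatin diet and -1.39 ± 0.14 on the control diet. Mmab, a cobalamin gene that shares a promoter region with Mvk, had 0.80 ± 0.16 (adjusted p = 0.00404). Erg28, a scaffold of the sterol demethylation enzymes, had 0.53 ± 0.13 (adjusted p = 0.023) and the glycolytic Aldoc 1.02 ± 0.24 (adjusted p = 0.0175). All 6 were lowered by corticosterone on the control diet.

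Of the newly appearing genes on none of the lists, 3 were also chosen after their values were seen. Ddit4l, an inhibitor of mTOR signalling, stood at 5.77 to 15.5 CPM (median 9.33) in Cort_ATGLi and 0.819 to 3.16 CPM (median 2.15) in EtOH_ATGLi livers, against 0.691 to 2 CPM (median 1.43) in Cort_CON and 1.02 to 1.94 CPM (median 1.47) in EtOH_CON livers. Its interaction was 2.29 ± 0.26 (adjusted p = 6.86e-08). The lipid flippase gene Atp8b5 had 2.39 ± 0.32 (adjusted p = 2.83e-06), and the exocyst gene Exoc4, at a mean of 23.4 CPM, 0.82 ± 0.13 (adjusted p = 4.18e-05).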
